A study of Mus musculus with 6 samples.

Results

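The 10 genes described here make, protect and crosslink fibrillar collagen. They are the lysyl oxidase genes Lox, Loxl1, Loxl2 and Loxl3, the lysyl hydroxylase genes Plod1 and Plod2, the prolyl 4-hydroxylase subunit genes P4ha1 and P4ha2, the collagen chaperone gene Serpinh1 and the procollagen protease enhancer gene Pcolce. They were chosen by symbol, and each matched 1 of the 20071 Ensembl IDs of the count table. Poly(A) RNA was sequenced from bone marrow MSCs (mesenchymal stem cells) of 6-week-old mice on a C57BL/6J background, in 3 libraries from Pcif1fl/fl controls and 3 from Prrx1-Cre;Pcif1fl/fl littermates. Both groups carried the floxed Pcif1 allele, and both were cultured for 7 days with dexamethasone at 100 nM, β-glycerophosphate at 5 mM and ascorbic acid at 50 μg/mL. Pcif1 encodes the methyltransferase that makes m6Am, a methylated adenosine at the first transcribed base of an mRNA. Prrx1-Cre acts in limb mesenchyme, so other cells of a marrow culture keep the gene. The series' design text speaks of biological duplicates, while the labels list 3 libraries of each genotype, and these were used as n = 3. The sources do not give the sex of the mice or say whether the 3 libraries of a genotype came from separate mice, and p-values measure only the spread between these libraries.

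Collagen chains are modified inside the endoplasmic reticulum before they fold. Prolyl 4-hydroxylases make the hydroxyproline that keeps the triple helix stable, lysyl hydroxylases make the hydroxylysine used for crosslinks and sugars, and both need ascorbate as a cofactor. HSP47, the product of Serpinh1, binds the folded helix until it leaves the endoplasmic reticulum. Outside the cell, the Pcolce protein speeds the removal of the C-propeptide, and the copper-dependent lysyl oxidases then oxidize lysines so that collagen and elastin crosslink, a step that gives bone matrix its strength.

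The libraries held between 20258209 and 28227696 counts. Control replicate 3 stood apart: its mitochondrial genes took 3.63% of counts, against 1.40% to 1.57% in the other 5 libraries, so results are also given without it. No pair of libraries of 1 genotype agreed within sampling noise. CPM are counts per 1000000 counts of a library, with its total scaled by TMM factors. Pcif1 spanned 39.3 to 42.8 CPM in controls and 37.8 to 39.7 CPM in knockouts, which does not check the deletion, since counts per gene do not show single exons. Xist, the transcript of the inactive X chromosome, ranged from 232 to 443 CPM in controls and from 0.722 to 1.79 CPM in knockouts, and the Y-linked Ddx3y from 48.4 to 62.2 and from 99.1 to 104 CPM. Genotype and the sex makeup of the cultures therefore cannot be told apart, and the part of sex in the results was not tested.

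The markers of other cell types did not all stay level. The summed level of 10 macrophage markers ran from 27957 to 30180 CPM in controls and from 27576 to 31015 CPM in knockouts, with none at 0. Most of it was Lyz2, the lysozyme gene of myeloid cells, at 21980 to 26233 CPM over the 6 libraries. With edgeR 0 of the 10 macrophage markers were called, while 3 had an unadjusted edgeR p under 0.05 and DESeq2 called 2. Over all genes, at least 2878 of 13733 tested had an unadjusted edgeR p under 0.05, and DESeq2 called 1423 of 15789. Without control replicate 3, 3 macrophage markers were higher and 1 lower, where 21.5% of all genes tested were called. Of 13 mesenchymal and osteoblast markers, 12 passed the filter on low counts, 5 were lower in knockouts and 2 higher, or 6 and 5 without control replicate 3. With all libraries 7.40% of all genes tested were called. The sum of the 13 markers, 15218 to 21433 CPM in controls and 18486 to 27245 CPM in knockouts, was mostly Spp1 and Col1a1. Of the 5 lower genes, Sp7, an osteoblast transcription factor gene, was at 9.37 to 11.5 CPM in controls and 2.41 to 2.99 CPM in knockouts. Alpl, the alkaline phosphatase gene, was at 86.0 to 97.7 and 39.3 to 46.1 CPM, and Ibsp, the bone sialoprotein gene, at 399 to 502 and 168 to 205 CPM. Thy1, a surface marker gene of stromal cells, was higher, at 2.28 to 4.70 CPM in controls and 8.18 to 10.2 CPM in knockouts, as was Col1a1. The rest of the 5 lower genes, Eng and Pdgfra, are surface marker genes of stromal cells too and went the other way from Thy1. Eng was at 49.9 to 79.2 CPM in controls and 28.0 to 30.0 CPM in knockouts, and Pdgfra at 88.5 to 96.9 and 66.5 to 71.9 CPM. The late osteoblast gene Bglap did not pass the filter, at 0.249 CPM or less in every library. Of 7 adipocyte markers 4 were lower by edgeR, where DESeq2 called 4 lower and 1 higher, and edgeR 5 lower and 2 higher without control replicate 3. Adipoq, the adiponectin gene, was at 42.9 to 53.8 CPM in controls and 0.289 to 1.49 CPM in knockouts, and Pparg, the adipocyte transcription factor gene, at 25.9 to 35.7 and 9.43 to 10.8 CPM. Plin1 and Cfd, at 1.18 to 4.12 CPM in controls, were at 0 in every knockout library. Fabp4, a fatty acid binding protein gene, was at 66.3 to 78.8 CPM in controls and 85.3 to 107 CPM in knockouts and was not called (edgeR adjusted p = 0.0545). The adipocyte sum, 761 to 801 CPM in controls and 662 to 863 CPM in knockouts, was mostly Lpl and Cebpa, which were not called and which other cells also express. Smooth muscle markers summed to 639 to 816 CPM in controls and 657 to 690.0 CPM in knockouts, with 1 of 6 lower, Myl9, or 2 without control replicate 3. Endothelial markers summed to 21.6 to 35.9 and 19.5 to 21.6 CPM, with 0 of 5 called by edgeR, 1 lower by DESeq2 and by an unadjusted p under 0.05, and 1 lower by edgeR without that library. In such mixed cultures fewer cells of a type and less RNA per cell cannot be told apart, and the part of cell makeup in the results was not tested.

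Because PCIF1 acts on transcripts that begin with adenosine, the start sites of the genes are shown first. The RefSeq promoter table for GRCm38.p6 held 5 of the 10 genes: Plod1, P4ha1, P4ha2, Serpinh1 and Pcolce. Each run gives 15 bases before the annotated start and the first 15 transcribed bases, 5′ to 3′ on the gene's strand, with the first transcribed base in capitals:
P4ha1 (chr10:59323281-59323310, plus strand): acgtagcgagggctgCggccgccccctctc
P4ha2 (chr11:54100909-54100938, plus strand): cgggcccggggggcgGgaggtggggacgtg
Plod1 (chr4:147936762-147936791, minus strand): cgcggcaccgcccccGgggcgggctcagtg
Serpinh1 (chr7:99353225-99353254, minus strand): ggggaggtctttggcTttttttctcctctc
Pcolce (chr5:137611390-137611419, minus strand): catctggtcctgattAtcctgctgctgctg
Of these 5 starts, Pcolce alone began with A, while 34.4% of all 32851 promoter windows do. No GENCODE transcript of Pcolce or Plod1 began at the RefSeq start, against 1 transcript each for P4ha1, P4ha2 and Serpinh1.

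Loxl1 and Loxl3 moved in opposite directions between the genotypes, and the other 8 genes were not called. Loxl3 rose by a factor of 1.76 and Loxl1 fell to 0.668 of its control level, each at an adjusted p under 0.05 from edgeR's quasi-likelihood test. All log2 fold changes are knockout against control. Of the 10 genes 2 were called, where 7.40% of the 13733 genes tested were called in either direction, or 4.51% lower and 2.88% higher. Neither gene reached a log2 fold change of 1 in size, while 3.53% of all genes tested were called with a change of at least that size. All 10 genes passed the filter on low counts. Their median log2 fold change was -0.010, against 0.0017 over all genes tested. In 3 of 10 genes the libraries of the genotypes did not overlap, 1 with the knockouts below and 2 with them above. Of all genes tested 30.8% show this, 15.7% with the knockouts below.

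**Figure D1:**
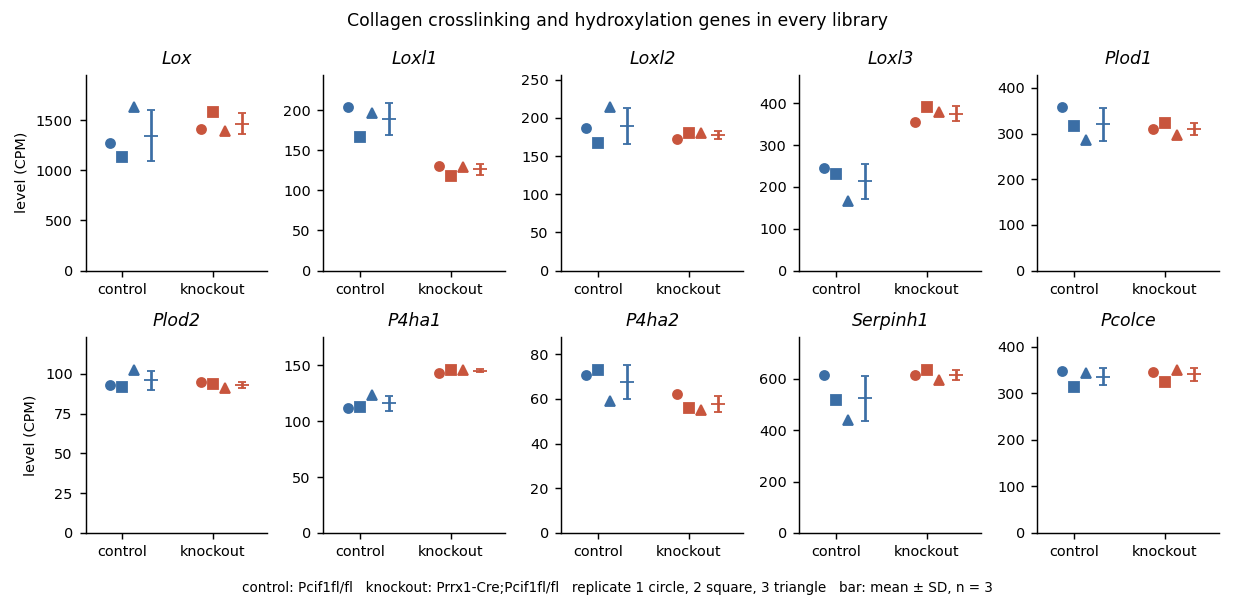
Level of each of the 10 genes in every library, in CPM, on linear axes that start at 0. Points are libraries and bars the mean ± SD of 3; the genotypes separate downward in Loxl1 and upward in Loxl3 and P4ha1, and overlap in the other 7 genes.

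Loxl1 encodes a lysyl oxidase known for its part in the upkeep of elastic fibres. It was at 204, 166 and 196 CPM in control replicates 1 to 3 and at 131, 118 and 129.8 CPM in knockout replicates 1 to 3. Every knockout library lay below every control library. The means were 189 ± 19.7 CPM (SD, n = 3) and 126 ± 7.12 CPM (SD, n = 3), and the log2 fold change of Loxl1 was -0.58 (SE 0.10, edgeR adjusted p = 0.0123). Without control replicate 3 it was -0.55 (edgeR adjusted p = 0.000182). The call on Loxl1 was lost without knockout replicate 1, 2 or 3 (edgeR adjusted p = 0.0647, 0.0714 and 0.0647), with log2 fold changes of -0.60, -0.53 and -0.60. No exon of another annotated gene overlaps those of Loxl1, which lies on chromosome 9 from 58287738 to 58313186 (GRCm38).

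Loxl3 encodes a lysyl oxidase with scavenger-receptor repeats that is needed for the palate and the spine. It was at 244, 230.0 and 166 CPM in control replicates 1 to 3 and at 355, 391 and 379 CPM in the knockout replicates. Every knockout library lay above every control library, and control replicate 3 was the lowest of the 6. The means were 213 ± 41.6 CPM (SD, n = 3) and 375 ± 18.4 CPM (SD, n = 3). The difference was 0.81 on the log2 scale (SE 0.14, edgeR adjusted p = 0.0116). Without control replicate 3 the change was smaller but more precise, at 0.66 (SE 0.065, edgeR adjusted p = 2.61e-06). The call on Loxl3 was lost without knockout replicate 2 or 3 (edgeR adjusted p = 0.0664 and 0.0583), at log2 fold changes of 0.78 and 0.81. Loxl3 lies on chromosome 6 from 83034173 to 83052562, and 11.6% of its exonic bases overlap Htra2, a mitochondrial protease gene on the other strand. The strand setting of the counts is not given in the sources used here, so reads of the shared stretch could count for either gene. Htra2 itself was at 16.4 to 37.3 CPM in controls and 30.8 to 37.1 CPM in knockouts, where the genotypes overlap, with a log2 fold change of 0.24 (edgeR adjusted p = 0.654).

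Lox, the founding member of the family and the main crosslinker of type I collagen, was the most abundant of the 10 genes. Its level was 1269, 1134 and 1628 CPM in control replicates 1 to 3 and 1411, 1584 and 1395 CPM in the knockout replicates. The highest and the lowest of these libraries were both controls. The log2 fold change of Lox was 0.12, with a 95% interval from -0.20 to 0.44 (edgeR adjusted p = 0.662). Without control replicate 3, whose Lox level was the highest, it was 0.29 and passed the threshold (edgeR adjusted p = 0.00777). Loxl2, which crosslinks basement membrane collagen IV among other substrates, was at 186, 167 and 214 CPM in controls and 172, 181 and 179.7 CPM in knockouts. Loxl2 lies on chromosome 14 from 69609068 to 69695834, where other annotated genes share 5.70% of its exonic bases. All 3 knockout libraries of Loxl2 fell inside the control range, and its interval on the log2 scale ran from -0.34 to 0.15.

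Per kilobase of exon, which allows levels of different genes to be compared, the order within the family differed between the genotypes. In controls Loxl1 averaged 57.3 ± 5.99 and Loxl3 46.4 ± 9.04 CPM per kb (SD, n = 3), and their libraries overlapped. In knockouts Loxl3 averaged 81.5 ± 3.99 and Loxl1 38.3 ± 2.16 CPM per kb (SD, n = 3). The ratio of Loxl3 to Loxl1 per kb was 0.858, 0.990 and 0.607 in control replicates 1 to 3 and 1.95, 2.37 and 2.09 in the knockout replicates. So per kb Loxl1 was the higher of the 2 in every control library, by very little in control replicate 2, and Loxl3 in every knockout library. The order in controls depends on the exon lengths used, 3297 bases for Loxl1 and 4603 for Loxl3. In CPM Loxl3 was above Loxl1 in control replicates 1 and 2, at 244 against 204 and 230 against 166. The ratio was chosen after the values were seen and is given without a test.

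**Figure D2:**
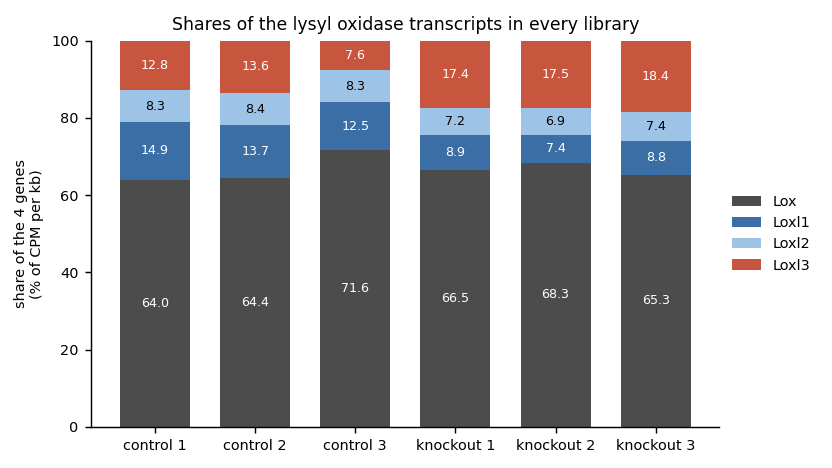
Share of Lox, Loxl1, Loxl2 and Loxl3 in their summed level per kb, in percent, as stacked bars for each of the 6 libraries. Lox takes 64.0% to 71.6% in controls and 65.3% to 68.3% in knockouts, while Loxl3 is above Loxl1 in the 3 knockout libraries alone.

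Of the summed level per kb of these 4 genes, Lox made up 66.7% ± 4.28 (SD, n = 3) in controls and 66.7% ± 1.49 (SD, n = 3) in knockouts. Loxl1 made up 12.5% to 14.9% in controls and 7.36% to 8.93% in knockouts, and Loxl3 7.58% to 13.6% and 17.4% to 18.4%. Loxl2 made up 8.31% to 8.39% and 6.88% to 7.44%. The sum itself was 420 ± 53.7 CPM per kb in controls, where the 3 libraries ranged from 369 to 476. In knockouts it was 459 ± 23.3 CPM per kb, inside a range of 444 to 486 that overlaps the controls. The share of Lox thus differed by less than the spread between libraries, while the shares of the other 3 genes did not overlap between the genotypes. A share depends on the other genes in the sum: the level of Loxl2 itself overlapped between the genotypes, as given above.

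P4ha1 and P4ha2 encode the alternative catalytic subunits of collagen prolyl 4-hydroxylase. P4ha1 was at 112, 112.5 and 124 CPM in control replicates 1 to 3 and at 144, 146 and 146 CPM in the knockout replicates. All 3 knockout libraries were above all 3 controls and close to each other. The log2 fold change of P4ha1 was 0.32 (SE 0.084) and missed the threshold (edgeR adjusted p = 0.0563). It passed the threshold with DESeq2 (0.33, DESeq2 adjusted p = 0.0231), with the correction for GC content and length (0.35, edgeR adjusted p = 0.0163) and without control replicate 3 (0.37, edgeR adjusted p = 0.000564). P4ha2 was at 70.8, 73.1 and 59.0 CPM in controls and 62.0, 55.8 and 55.2 CPM in knockouts. Control replicate 3 of P4ha2 sat among the knockout libraries. Its log2 fold change was -0.23 with a 95% interval from -0.49 to 0.027 (edgeR adjusted p = 0.288), and without control replicate 3 it was -0.32 (edgeR adjusted p = 0.00607). The ratio of P4ha1 to P4ha2 per kb was 2.40, 2.33 and 3.18 in controls and 3.51, 3.96 and 4.02 in knockouts, again without overlap and without a test.

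Both of these hydroxylase subunit genes respond to low oxygen in many cells, through factors that bind ACGTG or GCGTG. On either strand, this core occurred in all 5 promoter windows of 300 bases that were held for these genes and in 43.8% of all windows. The GC box GGGCGG on either strand was likewise in all 5 and in 35.7% of all windows, whereas TATAAA on the gene's strand was in P4ha1 alone, against 8.32% of windows. CCAAT on either strand was in 0 of the 5 and in 37.4% of all windows. A core of each with the letters ACGTG, upstream of the start, is printed below with the core in capitals. That of P4ha1 is at position -16 and that of P4ha2 at position -78 from the start site:
P4ha1 core on the other strand: tgtgacagagcgCACGTagcgagggctgc
P4ha2 core on the gene's strand: tgtgcatcgcatACGTGcagcgcgtggcg
A match of 5 letters does not show that a factor binds there. Of 14 tested hypoxia-response genes, 1 was higher in knockouts and 0 were lower with edgeR, close to the 7.40% called over all genes. The counts were 3 higher and 2 lower without control replicate 3, where 21.5% of all genes were called. The called gene was the glucose transporter gene Slc2a1, with a log2 fold change of 0.41 (edgeR adjusted p = 0.0318), a call lost with the replicate number as a block (edgeR adjusted p = 0.0943) and without any 1 library other than control replicate 3 (log2 fold changes from 0.38 to 0.46). At an unadjusted edgeR p under 0.05, 2 of the hypoxia-response genes were higher and 1 lower, where at least 2878 of all 13733 genes tested passed. DESeq2 called 1 higher and 0 lower, where it called 1423 of 15789 genes.

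The lysyl hydroxylase genes, the C-propeptide enhancer gene and the chaperone gene were not called. Plod1, whose product acts on lysines of the triple helix, was at 358, 317 and 286 CPM in control replicates 1 to 3 and 310.5, 324 and 297 CPM in the knockout replicates. Its log2 fold change had a 95% interval from -0.28 to 0.19, and it lies on chromosome 4 from 147909753 to 147936767 (GRCm38). Plod2, whose product acts on the telopeptides that form stable bone crosslinks, was at 93.2, 92.0 and 103 CPM in controls and 94.98, 93.3 and 91.1 CPM in knockouts. The interval of its log2 fold change ran from -0.24 to 0.15, and 6.42% of the exonic bases of Plod2 are shared with another annotated gene. The genotypes overlapped in both genes, and their Plod1 to Plod2 ratio per kb was 2.68 ± 0.422 in controls and 2.66 ± 0.0957 in knockouts (SD, n = 3 each). Pcolce was at 349, 315 and 343 CPM in controls and 347, 325 and 351 CPM in knockouts, with an interval from -0.18 to 0.22.

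Serpinh1 was at 614, 517 and 439.7 CPM in control replicates 1 to 3 and at 615, 636 and 597 CPM in the knockout replicates. Control replicate 1 lay among the knockout libraries and the other controls below them. The log2 fold change of Serpinh1 was 0.23, with a 95% interval from -0.05 to 0.52 (edgeR adjusted p = 0.337), and 0.13 without control replicate 3. Controls spread more widely than knockouts in this gene, with an SD of 87.4 against 19.8 CPM. The same held for each of the 10 genes, and control replicate 3 was the highest or lowest control in 8 of them, the exceptions being Loxl1 and Pcolce. With only 3 controls, any 1 of them would be the highest or lowest in most genes. The shares over all genes were not computed.

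**Figure D3:**
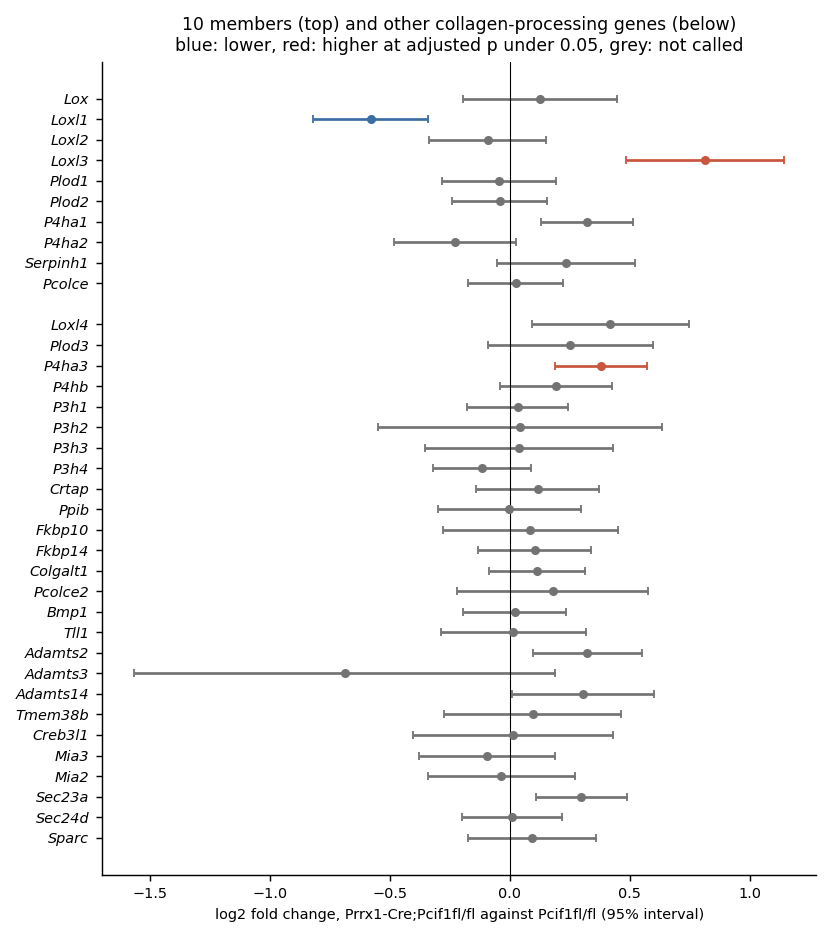
Log2 fold change of Prrx1-Cre;Pcif1fl/fl against Pcif1fl/fl with its unadjusted 95% interval, for the 10 genes (top) and 26 other genes of collagen processing (below), on a linear axis. Loxl1 at -0.58 is the called gene below 0, and Loxl3 at 0.81 and P4ha3 at 0.38 are the called genes above it.

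Of 27 other genes of collagen processing, 26 were tested, 1 was higher and 0 were lower with edgeR, where 7.40% of all genes tested were called. When control replicate 3 was left out, 6 were higher and 0 lower, close to the 21.5% of all genes called then. At an unadjusted edgeR p under 0.05, 5 were higher and 0 lower, where at least 2878 of all 13733 genes tested passed. DESeq2 called 2 higher and 0 lower, where it called 1423 of 15789 genes. The called gene was P4ha3, the gene of a further catalytic subunit of prolyl 4-hydroxylase, at 64.4 to 68.7 CPM in controls and 84.0 to 89.6 CPM in knockouts. Its log2 fold change of 0.38 (edgeR adjusted p = 0.0314) lost the call with the replicate number as a block (edgeR adjusted p = 0.0977) and without each library but control replicate 3, when it ranged from 0.35 to 0.41. P4hb, the gene of the partner subunit of the collagen prolyl 4-hydroxylases, had an interval from -0.04 to 0.42. Bmp1, the C-propeptide protease that the Pcolce protein assists, had one from -0.20 to 0.23. The median log2 fold change of the 26 genes was 0.087, and in 8 of them the genotypes did not overlap, 7 with the knockouts above and 1 with them below, set against the 30.8% of all genes given above.

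Among the collagen substrates, 2 of 11 fibrillar chains were called higher and 1 lower with edgeR, where 7.40% of all genes tested were called. DESeq2 called 4 higher and 1 lower, where it called 1423 of 15789 genes. Col1a1 and Col1a2, the chains of type I collagen, had log2 fold changes of 0.61 and 0.64 (edgeR adjusted p = 0.0154 and 0.0322), and Col27a1, a minor fibrillar chain of cartilage, one of -0.88 (edgeR adjusted p = 0.00737). The other 8 chains were not called by edgeR. Leaving out control replicate 3 gave 5 chains higher and 2 lower, where 21.5% of all genes were called. The call on Col1a1 was lost without control replicate 2 or knockout replicate 1 or 3 (0.63, 0.60 and 0.60), and that on Col1a2 without control replicate 2 or any knockout library (0.63 to 0.69). That on Col27a1 was lost without knockout replicate 3 (-0.85). Set against type I collagen, each class of these 10 genes was lower in every knockout library than in every control library. The divisor itself separated: Col1a1 was at 3485 to 4491 CPM in controls and 5827 to 6359 CPM in knockouts. Col1a2 was at 3226 to 4707 and 6204 to 6500 CPM. A gene of near constant level would thus also be lower on this scale, and the share of all genes that are was not computed. Per 100 units of Col1a1 plus Col1a2 per kb, the 4 lysyl oxidases summed to 39.0, 37.5 and 60.2 in control replicates 1 to 3 and to 29.7, 35.0 and 30.2 in the knockout replicates. Control replicate 3 stood well above the other controls, which lay close to knockout replicate 2.

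**Figure D4:**
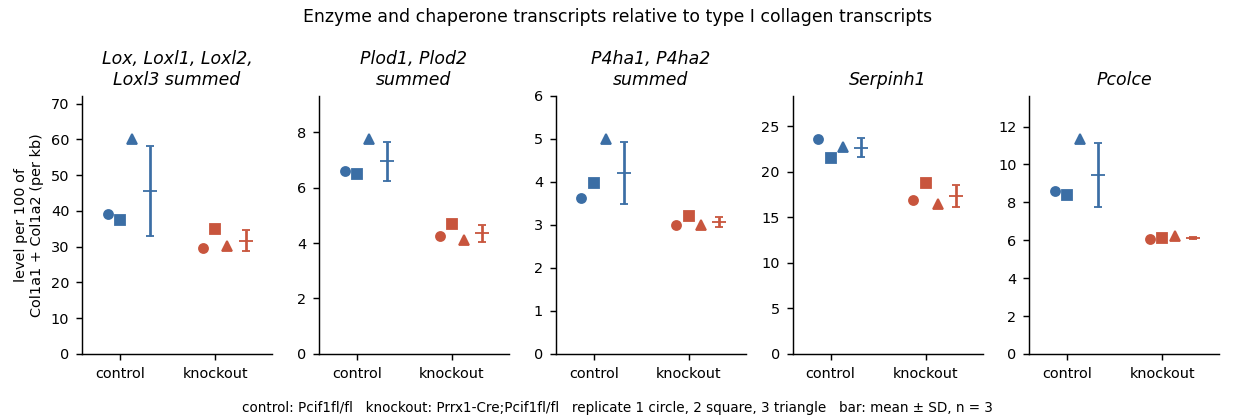
Summed level of each class of enzyme or helper transcript per 100 units of Col1a1 plus Col1a2, all in CPM per kb, in every library, on linear axes that start at 0. Points are libraries and bars the mean ± SD of 3. In each of the 5 panels the 3 knockout libraries lie below the 3 controls. Col1a1 and Col1a2, the divisor, were themselves higher in every knockout library.

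The lysyl hydroxylases Plod1 and Plod2 summed to 6.95 ± 0.705 per 100 units of type I collagen in controls and 4.35 ± 0.311 in knockouts (SD, n = 3 each). For the prolyl 4-hydroxylase subunits the values were 4.20 ± 0.713 and 3.07 ± 0.116, and for Pcolce 9.44 ± 1.67 and 6.14 ± 0.0596. Serpinh1 had 22.6 ± 1.07 and 17.4 ± 1.23 units, and here control replicate 3 lay between the other controls. The sums themselves overlapped between the genotypes in each class but the prolyl 4-hydroxylases, whose sum was higher in knockouts, and it is the Col1a1 and Col1a2 levels they are divided by that rose. These ratios are descriptions, with no test.

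Loxl1 is known to work with elastic fibre proteins, and 9 of 10 listed genes of that kind were tested. With edgeR 4 were lower in knockouts and 1 higher, where 7.40% of all genes tested were called. Leaving out control replicate 3, 7 were lower and 1 higher, where 21.5% of all genes were called. Fbln5, which encodes fibulin-5, the protein that tethers LOXL1 to elastin, was at 117 to 138 CPM in controls and 87.0 to 94.9 CPM in knockouts, a log2 fold change of -0.46 (edgeR adjusted p = 0.0253). That call was lost with the replicate number as a block (edgeR adjusted p = 0.0524), with the correction for GC content and length (-0.39) and without each library but control replicate 3 (-0.48 to -0.38). The microfibril genes Fbn2 and Mfap2 had log2 fold changes of -2.40 and -1.34 and were called under each of the 14 alternatives run. Eln, the elastin gene, was at 0.574 to 1.79 CPM in controls and 0.149 to 0.405 CPM in knockouts, low levels in both genotypes. Its log2 fold change of -2.31 (edgeR adjusted p = 0.0458) was not called with limma-voom (-2.15, limma adjusted p = 0.0951) or without any 1 library other than control replicate 3 (-2.76 to -2.04). Mfap5, a further microfibril gene, was higher, at 0.68 (edgeR adjusted p = 0.0268), and lost the call without control replicate 2 or any knockout library (0.59 to 0.77).

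Across all genes, those most like Loxl3 were Tinagl1, F11r and Aqp1, by the root mean square difference of log2 CPM centred on the control mean over the 6 libraries. The differences from Loxl3 were 0.034, 0.055 and 0.057 on the log2 scale. Tinagl1, a basement membrane protein gene, had a log2 fold change of 0.81, F11r, a junction adhesion gene, one of 0.80, and Aqp1, a water channel gene, one of 0.83. Since they were picked for their likeness to Loxl3 in these libraries, these values describe the choice and are not separate results.

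By level per kb in controls, Lox at 281 ± 53.4 and Serpinh1 at 214 ± 35.8 CPM per kb led the 10 genes, and their libraries overlapped. Pcolce followed at 87.8 ± 4.83. Loxl1, Plod1, Loxl3 and Loxl2 came next, each overlapping the next, and P4ha1, Plod2 and P4ha2 were lowest at 28.2, 17.8 and 10.8 CPM per kb. In knockouts the order was Lox, Serpinh1, Pcolce, Loxl3, Plod1, Loxl1, P4ha1, Loxl2, Plod2 and P4ha2, with no overlap between neighbours. Even P4ha2 stood above 69.7% of all genes tested in controls, and Lox above 99.3%. The 10 genes had at least 1122 counts in each library.

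Which of the 10 genes were called depended on single libraries. With knockout replicate 2 or 3 left out, 0 were lower and 0 higher. Of all genes tested, 521 of 13980 and 477 of 13981 were called then. Leaving out control replicate 3 added calls instead. Without it, 5 of the 10 genes were called, where 21.5% of the 13905 genes tested were: Lox, Loxl3 and P4ha1 higher and Loxl1 and P4ha2 lower. Plod1, Plod2, Loxl2, Serpinh1 and Pcolce were not called with or without it.

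**Figure D5:**
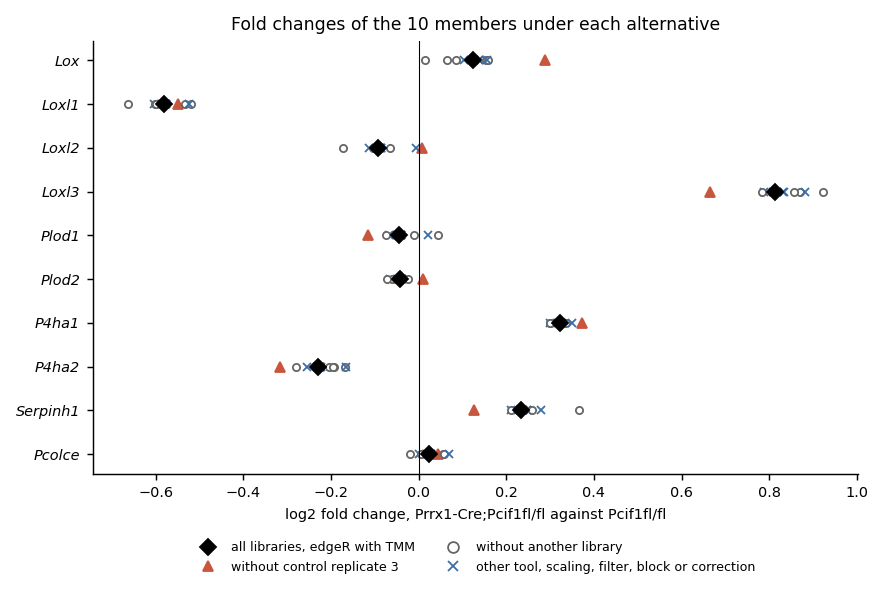
Log2 fold change of each of the 10 genes with all libraries (diamonds), without control replicate 3 (triangles), without another library (circles) and under other tools, scalings, filters, the block or the correction (crosses), on a linear axis. Loxl1 stays between -0.66 and -0.52 and Loxl3 between 0.66 and 0.92, while Loxl2, Plod1, Plod2 and Pcolce cross 0.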

How the data were processed

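Poly(A) RNA of osteogenic MSCs was sequenced in 3 Pcif1fl/fl and 3 Prrx1-Cre;Pcif1fl/fl libraries, grouped by their titles. The authors mapped paired reads to mm10 with HISAT2 and deposited raw read counts per gene, without normalization. The submitters' processing notes also name FastQC and DESeq2. The counting tool, annotation, strand setting and versions are not given in the sources used here. Of 20163 rows, 92 repeat an Ensembl ID and were dropped. Library totals are given in the results.

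Counts of all genes went through the quasi-likelihood test of edgeR 4.0.16 under R 4.3.3, after filterByExpr and TMM scaling, with no covariate, and Benjamini-Hochberg adjustment over the 13733 genes tested. A gene was called at an adjusted p under 0.05. Standard errors are the log2 fold change over the square root of F. CPM are scaled by TMM factors, and CPM per kb divide by the exonic length in GENCODE release M21 (GRCm38), the source of coordinates and overlaps. Promoter windows are those of RefSeq, 250 bases before to 50 after each start, of which 15 before and 15 from the start are printed. The alternatives were DESeq2 1.42.0, limma-voom (limma 3.58.1), RLE and total-count scaling, other filters, a replicate block, a fold threshold and leaving out each library. A GC content and length correction (splines with 5 degrees of freedom) was an alternative chosen after seeing the data. The edgeR, DESeq2 and limma-voom fits were tested on simulated counts before use, and the other steps were not. There edgeR recovered 78.6% of changes of 1 and 25.3% of changes of 0.6 on the log2 scale. An exact permutation test of 3 against 3 cannot go below a two-sided p of 0.1 and was not used. Intervals cover the spread between libraries and counting error.

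The 10 genes and the lists were chosen with earlier results of these data known. Genes named were all 10, Pcif1, Col1a1 and Col1a2, up to 6 called genes by smallest p of the lists of other collagen-processing, fibrillar collagen, elastic fibre and hypoxia genes, and the 3 genes most like the gene with the smallest p. P4hb, Bmp1, Htra2, Xist, Ddx3y and the cell type markers given by name were named in addition, after their values were seen.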

Additional observations from a re-analysis of the deposited data

How the results depend on the processing

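Among the 10 genes, 125 of 140 fold changes under an alternative kept their direction and their side of the threshold. The count of genes lower in knockouts was 1 of 10 and ranged from 0 to 2 when 1 library was left out, and the count higher was 1 and ranged from 0 to 3. The other collagen-processing genes called higher numbered 1, and from 0 to 6 with 1 library left out. Over all genes, 620 were lower and 396 higher, with ranges of 324 to 1447 and 148 to 1544. With a log2 fold change of at least 1 required, 0 of the 10 genes were lower, 0 were higher and 0 of the other collagen-processing genes were higher, while 343 of all genes were lower and 142 higher. With DESeq2, 2 of the 10 genes and 2 of the other collagen-processing genes were higher, and 830 of all genes were lower and 593 higher. Correcting for GC content and gene length, those counts were 2 and 2, and 688 of all genes were higher. With the replicate block, 0 of the other collagen-processing genes were higher, Loxl1 and Loxl3 stayed called, and 503 of all genes were lower and 267 higher. Deviations of same-numbered libraries correlated at 0.055, -0.045 and -0.013, and those of other pairs at -0.041 to 0.049. These values gave no sign of pairing by number, but with 3 libraries per genotype they cannot exclude it.

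Among the 10 genes, 4 that were not called changed sign near 0, Loxl2, Plod1, Plod2 and Pcolce, while Lox, P4ha1, P4ha2 and Serpinh1 kept theirs. When 1 library was left out, log2 fold changes ranged from -0.17 to 0.0086 for Loxl2, -0.12 to 0.044 for Plod1, -0.072 to 0.011 for Plod2 and -0.021 to 0.059 for Pcolce. The upper ends of Loxl2 and Plod2 came without control replicate 3, that of Plod1 without control replicate 1 and the lower end of Pcolce without control replicate 2. Correcting for GC content and gene length gave 0.022 for Plod1 and 0.0016 for Pcif1. The causes of these shifts were not tested.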
